A study of Mus musculus with 8 samples.

Results

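Endothelial cells line the blood vessels of the brain and spinal cord, and this gene set holds 32 genes that mark them or carry out their barrier work. The genes were chosen by name, with earlier results of these data known, and each was read from its brightest probe. All 32 were found among the 37074 gene names on the array, and all 32 were among the 25903 genes tested, although Erg passed the filter on low signal only through the arrays of mice with untreated disease. By role, 10 are adhesion and surface genes, 8 are receptors and signalling genes, 4 belong to the tight junction, 7 are transporters and their partners, and 3 are transcription factors.

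The blood-brain barrier is a property of vessel endothelium: tight junctions seal the gaps between neighbouring cells, transporters carry nutrients in, efflux pumps return drugs and toxins to the blood, and low transcytosis limits bulk leak. VEGF, angiopoietin and Wnt signals shape these vessels, and pericytes wrap them. In experimental autoimmune encephalomyelitis (EAE), the mouse model of multiple sclerosis, immune cells cross this barrier in the spinal cord.

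The study held 8 single-colour arrays of RNA labelled as spinal cord astrocytes from C57Bl/6J mice, 1 array per group. The groups were Cx47-deficient (titled icKO) and wild-type (WT, titled FL or F/F) mice, each with EAE, with EAE and iguratimod (an anti-inflammatory drug), in the chronic phase of EAE (p50 in the title), or naive. Connexin 47 (Cx47) forms gap junctions in oligodendrocytes, and by its title the series used a conditional knockout in oligodendroglia. The Cre driver, the age of the mice, the number of mice per array, the clinical scores and the way the cells were isolated are not given in the sources used here. No label states that the arrays came from separate mice. The p-values therefore measure only the spread between these arrays, which may be technical, and with 1 array per group that spread is the unevenness of the genotype difference from one condition to the next.

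Levels below are log2 signals relative to the 75th percentile of their own array, and levels of different genes are not comparable because each probe has its own brightness. Gfap, the intermediate filament of astrocytes, lay at 3.88 and 3.85 in Cx47-deficient and WT mice with EAE, 3.52 and 3.19 with iguratimod, 1.55 and 0.78 in chronic EAE, and 2.42 and 2.14 in naive mice. Astrocyte markers were well above background on each array (12 of 12, among them Gfap, Gja1 and Aqp4), but so were 9 of 9 oligodendrocyte, 6 of 6 neuron, 7 of 7 microglia and 10 of 10 pericyte markers, so the RNA was not of astrocytes alone. In such mixed RNA, fewer endothelial cells and less RNA per cell cannot be told apart. The 2 chronic arrays were hybridised on a second slide, scanned in another session. There, 71.3% and 72.0% of spots were well above background, against 59.7% to 65.8% on the other 6 arrays, and the spike-in slope was 0.76, against 0.92 to 1.07. Chronic disease and slide therefore cannot be told apart, while the other conditions shared slide 1.

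Most of the genes followed one pattern across the 8 arrays. In 21 of the 32, the level correlated at 0.9 or more with the mean of the other members, led by the tight junction gene Cldn5 (r = 0.998) and the surface sialomucin Emcn (0.995). Another 7, including Eng (0.889), Pecam1 (0.63) and Bsg (0.602), lay between 0.5 and 0.9. The junction genes Cgnl1 (0.331) and Ocln (0.001), the transcription factor Sox17 (0.26) and the diaphragm gene Plvap (-0.049) lay under 0.5. These are descriptions over 8 arrays that share their normalization and, for 6 of them, their slide. The share of all genes at such correlations is not given, so these counts have no background beside them. The mean deviation of the 29 members that were well above background on every array was 0.71 and 0.80 in Cx47-deficient and WT mice with EAE, 0.11 and 0.49 with iguratimod, -0.09 and -0.73 in chronic EAE, and -0.97 and -0.32 in naive mice. The highest array was an EAE array for 27 of the 32 members, 7 of them in the Cx47-deficient and 20 in the WT mouse. The lowest was the Cx47-deficient naive array for 21 and the WT chronic array for 8. The counts of highest and lowest arrays were not made over all genes.

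**Figure D1:**
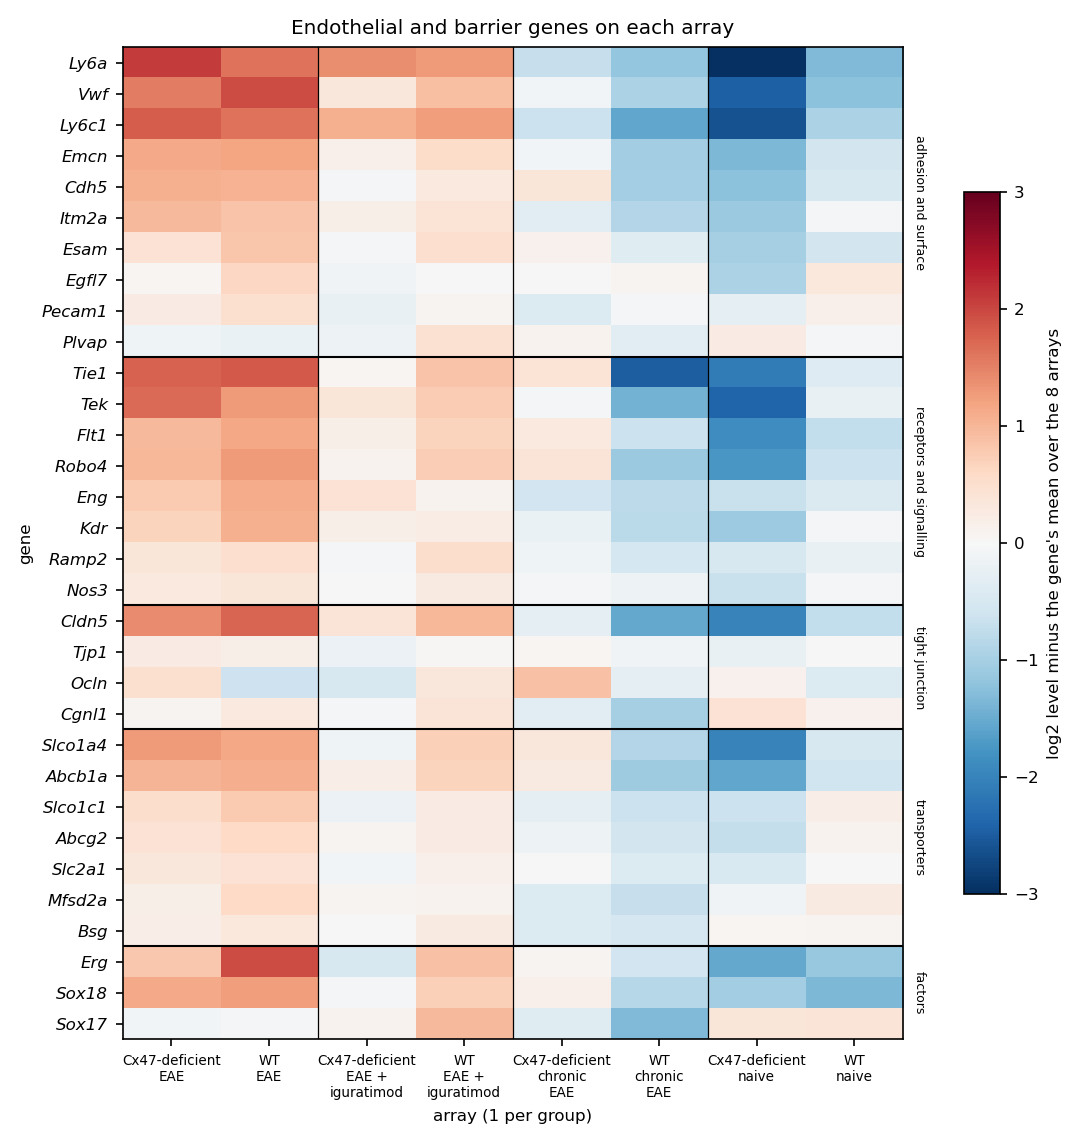
Level of each of the 32 genes (rows, grouped by role) on each of the 8 arrays (columns, 1 per group), as the log2 level minus the gene's own mean over the 8 arrays, with colours limited to values between -3 and 3. The EAE columns are red for most genes, and the Cx47-deficient naive and WT chronic columns are blue. Over the 29 genes well above background on every array, the mean deviations are 0.71 and 0.80 in the EAE columns. They are -0.97 and -0.73 in the blue ones. Plvap, Ocln, Cgnl1 and Sox17 depart from this pattern.

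Because so many members moved together, their promoter windows were read from RefSeq on GRCm38.p6, from 250 bases before to 50 bases after the start. Windows were listed for 21 of the 32 genes, 29 windows in all, and several genes had more than 1. The 15 motifs, searched on both strands, were chosen with the data and some motif shares known, so the shares are descriptions. AGGAAG, a core bound by the ETS family to which Erg belongs, was present in 16 of the 29 member windows (55.2%), in 13 genes, against 35.4% of all 32851 windows. The longer form CAGGAAG and the form GGAAGT, which can overlap AGGAAG, were in 27.6% against 13.3% and in 34.5% against 23.8%. CCGGAAG, another ETS form, was in 0 of 29 against 8.86%. The GC box GGGCGG was in 44.8% against 35.7%, TATAAA in 24.1% against 13.6%, the SOX cores ACAAAG and ACAATG in 20.7% against 18.7% and in 10.3% against 12.6%, the forkhead core GTAAACA in 3.45% against 3.65%, the E-box CANNTG in 79.3% against 72.3% with its form CACGTG in 3.45% against 7.15%, and the GATA core GATAAG in 13.8% against 7.44%. The STAT form TTCNNNGAA (8.3% of all windows), an interferon response form of paired GAAA runs (3.44%) and the palindromic ETS pair (0.712%) were in none of the 29. The 5 windows printed here show 1 gene from each of 4 roles that followed the shared pattern or, for Tjp1, a junction gene with a small difference between EAE and naive mice. Capitals mark AGGAAG or GGGCGG on either strand. Emcn and Tie1 each hold 2 AGGAAG cores, Slco1a4 holds 1, Cldn5 holds 1 GGGCGG and Tjp1 holds 2.
Cldn5, chr16:18776597-18776896, plus strand: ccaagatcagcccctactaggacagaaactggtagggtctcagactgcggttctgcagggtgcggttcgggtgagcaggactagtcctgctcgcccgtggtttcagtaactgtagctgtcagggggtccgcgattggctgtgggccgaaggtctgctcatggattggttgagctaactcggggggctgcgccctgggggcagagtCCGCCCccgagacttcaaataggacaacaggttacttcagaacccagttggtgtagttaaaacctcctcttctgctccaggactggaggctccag
Tie1, chr4:118489800-118490099, minus strand: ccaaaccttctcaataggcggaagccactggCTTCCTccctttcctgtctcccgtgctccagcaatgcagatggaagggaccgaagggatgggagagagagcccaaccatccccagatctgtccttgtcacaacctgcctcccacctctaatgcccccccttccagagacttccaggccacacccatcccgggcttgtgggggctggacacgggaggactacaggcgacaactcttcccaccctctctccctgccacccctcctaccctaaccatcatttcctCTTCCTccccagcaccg
Emcn, chr3:137340828-137341127, plus strand: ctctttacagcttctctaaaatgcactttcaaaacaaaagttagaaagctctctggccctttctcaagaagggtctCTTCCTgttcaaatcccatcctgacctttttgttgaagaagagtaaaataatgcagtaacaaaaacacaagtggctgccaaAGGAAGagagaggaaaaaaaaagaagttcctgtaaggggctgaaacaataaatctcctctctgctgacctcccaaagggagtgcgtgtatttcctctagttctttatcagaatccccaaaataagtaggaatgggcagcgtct
Slco1a4, chr6:141856171-141856470, minus strand: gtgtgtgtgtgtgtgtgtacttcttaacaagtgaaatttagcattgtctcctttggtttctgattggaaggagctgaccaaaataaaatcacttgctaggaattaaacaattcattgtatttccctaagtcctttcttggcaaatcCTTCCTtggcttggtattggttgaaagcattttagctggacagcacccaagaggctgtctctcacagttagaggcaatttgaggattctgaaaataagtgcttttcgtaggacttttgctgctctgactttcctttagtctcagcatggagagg
Tjp1, chr7:65371195-65371494, minus strand: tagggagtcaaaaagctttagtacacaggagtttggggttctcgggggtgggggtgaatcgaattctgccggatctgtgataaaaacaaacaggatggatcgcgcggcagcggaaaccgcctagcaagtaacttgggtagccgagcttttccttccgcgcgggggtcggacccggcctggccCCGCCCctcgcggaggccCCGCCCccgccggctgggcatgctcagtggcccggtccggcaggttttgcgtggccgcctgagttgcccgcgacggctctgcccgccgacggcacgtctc

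The first question was how the preparations from mice with EAE compared with those from naive mice. By fitted value, 18 of the 32 genes were at least 2-fold higher in EAE than in naive mice over both genotypes, and none was 2-fold lower. They include Tie1 and Erg, which were dim on both naive arrays and have only lower bounds, of 3.4-fold for Tie1 and 1.4-fold for Erg. Of the genes measured on all 8 arrays, Ly6a (17.6-fold), Vwf (12-fold), Ly6c1 (11.3-fold) and Cldn5 (7.65-fold) led. Over all genes tested, 4.37% were 2-fold higher and 3.04% 2-fold lower. The median difference of the members was 1.47, against -0.06 over all genes tested, and 1.42 with Tie1 and Erg at their bounds. Both EAE arrays lay above both naive arrays for 26 members (13.4% of all genes) and below both for 2, Plvap and Sox17 (16.7%). The test was limma's moderated test, fitted with condition and genotype over all 8 arrays and adjusted over all 25903 genes. At an adjusted p under 0.05 it called 0 of the 32, with 0.247% of all genes called higher and 0.00386% called lower. At an unadjusted p under 0.05, 24 members were higher, against 5.41% of all genes, and none was lower, against 1.76%. The 24 and the 26 include Erg, which passed the filter only through the EAE arrays, where it was high. Median centring of the arrays and normexp background correction each brought 3 members past the threshold, Ly6a, Ly6c1 and Vwf, and keeping only genes measured on all 8 arrays brought 3, Eng, Ly6a and Vwf. Over all genes the calls numbered 337, 200 and 205 under these settings, against 65.

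The comparison was also read within each genotype. The median difference between the EAE and the naive array was 1.44 in Cx47-deficient mice, where 20 of 32 members were at least 2-fold higher (5.06% of genes compared). In WT mice it was 1.02, with 16 of 32 at least 2-fold higher (3.35%). With 1 array on each side neither was tested.

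**Figure D2:**
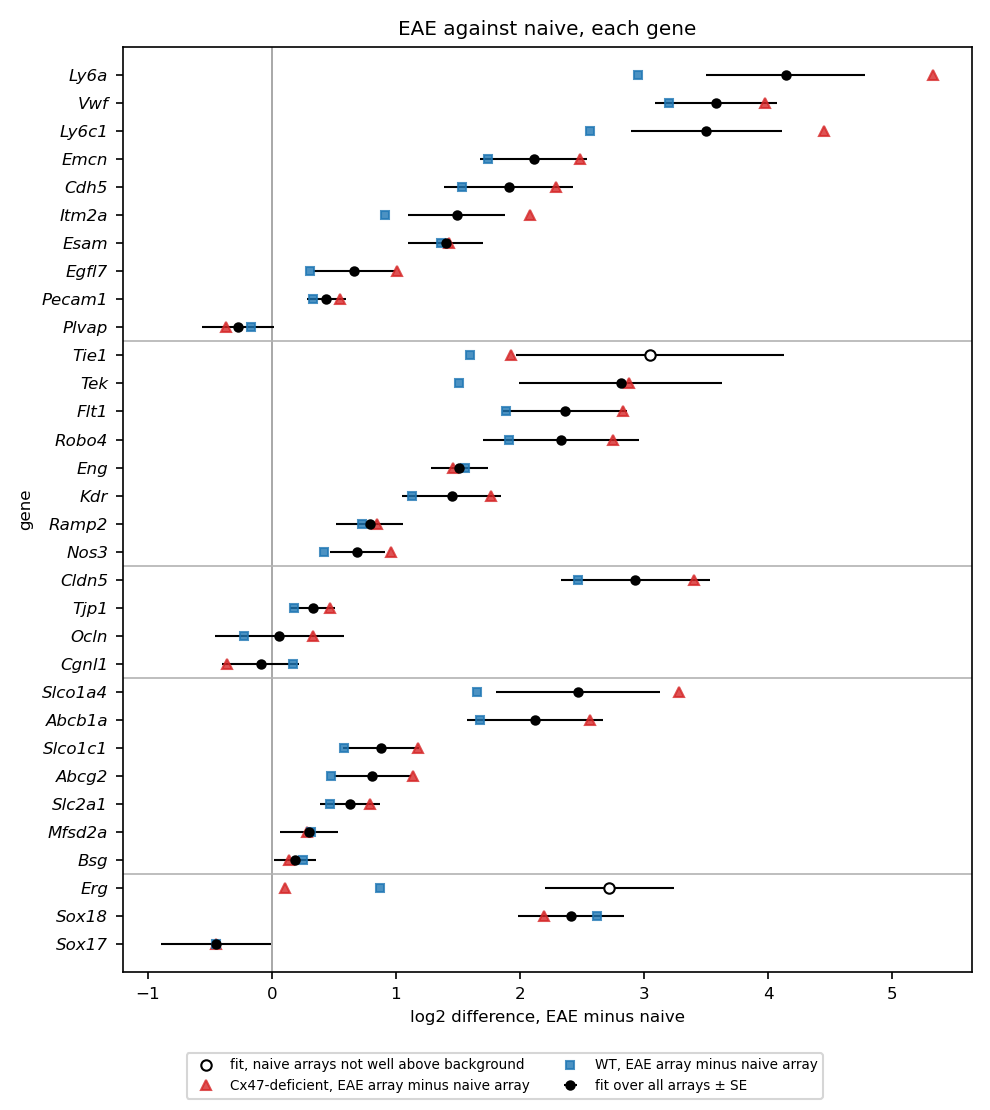
Log2 difference between EAE and naive mice for each gene, grouped by role: black circles are the fit over both genotypes with its standard error (open where the naive arrays were not well above background), red triangles the Cx47-deficient pair and blue squares the WT pair, with dim signals raised to the array's floor. Of the filled circles, Ly6a, Vwf, Ly6c1 and Cldn5 lie farthest to the right, between 2.93 and 4.14, while Plvap, Ocln, Cgnl1, Sox17 and Bsg lie between -0.45 and 0.19.

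Among the adhesion and surface genes, Ly6a (Sca-1), a glycosylphosphatidylinositol-anchored surface protein of barrier endothelium that interferon also induces in other cells, differed most. In Cx47-deficient mice it lay at 2.13 in EAE, 1.43 with iguratimod, -0.65 in chronic EAE and -3.20 in the naive mouse, and in WT mice at 1.66, 1.30, -1.14 and -1.29 in the same conditions. Both EAE levels were above both naive levels, and the fitted difference was 4.14 ± 0.64 (SE), with a limma adjusted p of 0.0965. Its neighbour Ly6c1, a related surface protein, lay at 3.88, 3.13, 1.41 and -0.56 in Cx47-deficient mice in those conditions and at 3.68, 3.31, 0.51 and 1.12 in WT mice. The difference for Ly6c1 between EAE and naive was 3.50 ± 0.61 (adjusted p 0.124), again with no overlap. Ly6c2, a near-identical gene that monocytes express, had a probe whose levels were 3.80, 3.13, 1.31 and -0.92 in Cx47-deficient mice and 3.59, 3.17, 0.43 and 0.93 in WT mice. Signal from these paralogs may be shared, so the endothelial share of the Ly6c1 signal is uncertain.

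Vwf, the von Willebrand factor that endothelium and platelets store, lay at 0.01 in EAE, -1.19 with iguratimod, -1.61 in chronic EAE and -3.96 in the naive Cx47-deficient mouse. In WT mice Vwf lay at 0.43, -0.61, -2.47 and -2.76 in these conditions. The EAE arrays were above the naive ones by 3.58 ± 0.49 (adjusted p 0.0779). Of the platelet list, 3 of 6 genes tested were above and 3 below 0 in the same fit, with a median of 0.11. Of those above 0, Ppbp and Treml1 were dim on both naive arrays. The part of platelets in the Vwf signal was not tested. Cdh5, which encodes the junction cadherin VE-cadherin, lay at -2.30 and -2.33 in Cx47-deficient and WT mice with EAE, -3.41 and -3.07 with iguratimod, -3.01 and -4.38 in chronic EAE, and -4.59 and -3.86 in naive mice. That was a difference of 1.91 ± 0.52 (adjusted p 0.353) between EAE and naive, and the groups did not overlap. Pecam1, the adhesion molecule CD31, differed by much less: -3.29 and -3.06 in Cx47-deficient and WT mice with EAE, -3.76 and -3.45 with iguratimod, -3.96 and -3.57 in chronic EAE, and -3.84 and -3.39 in naive mice. Its difference of 0.44 ± 0.16 (adjusted p 0.628) left the EAE and naive arrays just apart.

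Emcn, a sialomucin of veins and capillaries, was higher in EAE by 2.11 ± 0.43, Itm2a by 1.49 ± 0.39, the junction adhesion molecule Esam by 1.40 ± 0.30 and the secreted vessel protein Egfl7 by 0.66 ± 0.33. All but Egfl7 had EAE arrays above both naive arrays. With 1 array left out at a time, Egfl7 ran from 0.16 to 1.16 and Itm2a from 0.90 to 2.09. Plvap, the diaphragm protein of leaky vessels that mature barrier endothelium keeps low, was the member of this role with the smallest difference. In Cx47-deficient mice Plvap lay at 0.09 in EAE, 0.07 with iguratimod, 0.33 in chronic EAE and 0.46 in the naive mouse, and in WT mice at 0.02, 0.68, -0.10 and 0.19. Both EAE levels were below both naive levels, by -0.27 ± 0.29 in the fit (adjusted p 0.928).

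Of the receptors and signalling genes, all 8 had a positive difference between EAE and naive mice, with a median of 1.92, and all 8 had EAE arrays above both naive arrays. Flt1 and Kdr are the VEGF receptors VEGFR1 and VEGFR2. Flt1 lay at 1.55 in EAE, 0.75 with iguratimod, 0.88 in chronic EAE and -1.28 in the naive Cx47-deficient mouse, and at 1.74, 1.25, -0.07 and -0.15 in WT mice. The difference was 2.36 ± 0.50 (adjusted p 0.192) for Flt1 and 1.45 ± 0.40 (adjusted p 0.366) for Kdr. Tek (Tie2), the angiopoietin receptor, differed by 2.81 ± 0.82, and it was not well above background in the Cx47-deficient naive mouse. Its partner receptor Tie1 was well above background on 4 of the 8 arrays, at -3.52 and -3.46 in Cx47-deficient and WT mice with EAE, at -4.45 in the WT mouse with iguratimod and at -4.88 in the Cx47-deficient mouse with chronic EAE. It was not well above background on either naive array, so Tie1 was at least 3.4-fold higher in EAE than in naive mice, a lower bound, with an adjusted p of 0.604.

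Eng (endoglin), a co-receptor for TGF-beta and BMP ligands, lay at -1.65 and -1.33 in Cx47-deficient and WT mice with EAE, -2.00 and -2.34 with iguratimod, -3.02 and -3.22 in chronic EAE, and -3.11 and -2.89 in naive mice. It was higher in EAE by 1.51 ± 0.23 (adjusted p 0.0934), with the smallest standard error among the members at or above 2-fold. Robo4, a guidance receptor that stabilises vessels, differed by 2.33 ± 0.63, and Ramp2, the accessory protein of the adrenomedullin receptor, by 0.79 ± 0.27. Nos3, the endothelial nitric oxide synthase, differed least in this role. It lay at 0.19 and 0.26 in Cx47-deficient and WT mice with EAE, -0.12 and 0.15 with iguratimod, -0.17 and -0.27 in chronic EAE, and -0.77 and -0.16 in naive mice, a difference of 0.69 ± 0.22 (adjusted p 0.519) with no overlap between EAE and naive.

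The 4 tight junction genes did not move alike. Cldn5, the main claudin of the barrier, lay at 1.51 in EAE, 0.48 with iguratimod, -0.16 in chronic EAE and -1.89 in the naive Cx47-deficient mouse, and at 1.84, 1.11, -1.44 and -0.63 in WT mice. EAE was above naive by 2.93 ± 0.60 (adjusted p 0.183), without overlap. Tjp1, the scaffold ZO-1, which many cell types express, lay at 1.21 and 1.13 in Cx47-deficient and WT mice with EAE, 0.79 and 1.00 with iguratimod, 1.01 and 0.86 in chronic EAE, and 0.74 and 0.95 in naive mice. Its EAE arrays were above its naive ones by only 0.33 ± 0.18 (adjusted p 0.924). Ocln (occludin) lay at -3.44 and -4.54 in Cx47-deficient and WT mice with EAE, -4.40 and -3.58 with iguratimod, -3.02 and -4.20 in chronic EAE, and -3.77 and -4.32 in naive mice. The EAE and naive levels of Ocln overlapped, with a difference of 0.06 ± 0.52 whose sign turned under normexp (-0.05). Cgnl1 (paracingulin), an adaptor of the junction plaque, differed by -0.09 ± 0.31, also with overlap.

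Of the 7 transporters and partners, all had a positive difference between EAE and naive mice, with a median of 0.81, and 2 were at least 2-fold higher. Slco1a4 (Oatp1a4), an organic anion transporter of barrier endothelium, lay at -0.53 in EAE, -1.93 with iguratimod, -1.47 in chronic EAE and -3.81 in the naive Cx47-deficient mouse, and at -0.63, -1.08, -2.68 and -2.28 in WT mice. It was higher in EAE by 2.47 ± 0.66 (adjusted p 0.347). Abcb1a, the drug efflux pump P-glycoprotein, lay at -0.59 and -0.52 in Cx47-deficient and WT mice with EAE, -1.41 and -0.94 with iguratimod, -1.34 and -2.66 in chronic EAE, and -3.15 and -2.20 in naive mice. The difference for Abcb1a was 2.12 ± 0.55 (adjusted p 0.318), and neither gene's EAE and naive arrays overlapped.

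The other 5 differed less. Slco1c1 (Oatp1c1), which carries thyroxine and is also made by astrocytes, lay at -0.11 and 0.14 in Cx47-deficient and WT mice with EAE, -0.81 and -0.39 with iguratimod, -0.92 and -1.28 in chronic EAE, and -1.29 and -0.44 in naive mice, a difference of 0.88 ± 0.31 (adjusted p 0.596). Slc2a1, the glucose transporter GLUT1, lay at 2.66 and 2.76 in Cx47-deficient and WT mice with EAE, 2.24 and 2.47 with iguratimod, 2.32 and 1.91 in chronic EAE, and 1.87 and 2.30 in naive mice. EAE exceeded naive by 0.63 ± 0.24 for Slc2a1 (adjusted p 0.68) and by 0.81 ± 0.31 for the efflux pump Abcg2 (adjusted p 0.664), and both were without overlap. Mfsd2a, the lysophospholipid transporter that also restrains transcytosis, lay at 0.79 and 1.21 in Cx47-deficient and WT mice with EAE, 0.70 and 0.74 with iguratimod, 0.21 and -0.06 in chronic EAE, and 0.51 and 0.89 in naive mice. Its EAE and naive levels overlapped, with a difference of 0.30 ± 0.23 (adjusted p 0.924). Bsg (basigin), the chaperone of monocarboxylate transporters, lay at 3.08 and 3.19 in Cx47-deficient and WT mice with EAE, 2.88 and 3.14 with iguratimod, 2.48 and 2.37 in chronic EAE, and 2.94 and 2.95 in naive mice, a difference of 0.19 ± 0.17 (adjusted p 0.924).

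Of the 3 transcription factors, Erg, an ETS factor that maintains endothelial identity, was well above background on the 2 EAE arrays alone, at -5.35 in the Cx47-deficient and -4.19 in the WT mouse. Erg was at least 1.4-fold higher in EAE than in naive mice. No test value is given for it, because it passed the filter only through the arrays where it was high. Sox18, a SOX factor of vessels and lymphatics, was higher in EAE by 2.41 ± 0.43 (adjusted p 0.128), without overlap. Sox17, a relative that marks arteries and that oligodendrocyte precursors also express, went the other way. It lay at 0.90 and 0.93 in Cx47-deficient and WT mice with EAE, 1.08 and 1.97 with iguratimod, 0.62 and -0.34 in chronic EAE, and 1.35 and 1.38 in naive mice. Both EAE levels of Sox17 were below both naive levels, by -0.45 ± 0.44 in the fit (adjusted p 0.926), and the sign turned to 0.35 when its 3 probes were averaged. Its other probes were well above background on 0 and 1 arrays and gave 1.75 and -0.25.

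Whether iguratimod altered these genes in EAE was compared within slide 1. In 24 of the 32 members both treated arrays lay below both untreated EAE arrays, against 12.6% of all genes, and the median difference was -0.58, against -0.01 over all genes. Sox17 was the only member above on both arrays (11.8%). By fitted value, 3 members were at least 2-fold lower with iguratimod than without (1.6% of all genes), Vwf (-1.12 ± 0.49), Tie1, which was dim in the treated Cx47-deficient mouse, and Erg, which was dim in both treated mice and has only a bound of at least 1.5-fold lower. Cldn5 differed by -0.88 ± 0.60, Slco1a4 by -0.92 ± 0.66, Cdh5 by -0.92 ± 0.52, Eng by -0.68 ± 0.23 and Ly6c1 by -0.56 ± 0.61. Limma called 0 members and 0 of all genes at an adjusted p under 0.05. At an unadjusted p under 0.05 it had 2 members lower, Pecam1 and Eng, against 1.56% of all genes.

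Within each genotype the same comparison gave a median of -0.60 in Cx47-deficient mice, with 7 of 32 members at least 2-fold lower (3.47%), and -0.44 in WT mice, with 3 at least 2-fold lower (1.22%). Against naive mice, which are the same arrays as in the comparison of EAE with naive, treated mice had a median difference of 0.86. Both treated arrays were above both naive arrays for 20 members, against 14.1% of all genes. Ly6a (3.61 ± 0.64), Ly6c1 (2.94 ± 0.61), Vwf (2.46 ± 0.49) and Cldn5 (2.06 ± 0.60) led, and limma called none (0.00386% of all genes were called higher). At an unadjusted p under 0.05, 12 were higher (4.12%), and 14 were at least 2-fold higher by fitted value (3.15%). These counts include Erg, dim on all 4 arrays compared. The 20 and the 14 also include Tie1, with a bound of at least 1.33-fold. Among these arrays Tie1 was well above background only in the WT mouse with iguratimod. The median was 0.48 without the Cx47-deficient naive array and 0.47 under normexp.

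Chronic EAE was set against acute EAE with the slide as an inseparable difference. Here 4 members fell at an adjusted p under 0.05 by limma, against 5.4% of all genes called lower and 9.32% called higher. They were Ly6c1 (-2.82 ± 0.61, adjusted p 0.0456), Ly6a (-2.79 ± 0.64, adjusted p 0.0487), Vwf (-2.26 ± 0.49, adjusted p 0.046) and Eng (-1.63 ± 0.23, adjusted p 0.0356), and each was lower in both chronic arrays than in both EAE arrays. That order held for 29 of the 32 members, against 36.0% of all genes, 18 were at least 2-fold lower in the fit (8.01%), and 21 were lower at an unadjusted p under 0.05 (18.0%). Each of these counts includes Erg, which passed the filter only through the acute EAE arrays. The median difference was -1.30, against 0.02 over all genes, and -1.17 with Erg at its bound. Cldn5 (-2.47 ± 0.60, adjusted p 0.0527) and Emcn (-1.73 ± 0.43, adjusted p 0.0536) lay just outside the threshold, and Ocln (0.37 ± 0.52) and Plvap (0.06 ± 0.29) were the only members without a negative difference. The count of 4 became 0 without either acute EAE array or without the WT chronic array, 1 without either iguratimod array, 5 without either naive array, and 6 without the Cx47-deficient chronic array. Over all genes the calls in these fits numbered 1 without either acute EAE array, 3 without the WT chronic array, 716 without either iguratimod array, 2644 without either naive array and 1183 without the Cx47-deficient chronic array, against 3811. The median was -0.57 without the WT chronic array. With 1 array left out at a time, Ly6c1 ran from -3.54 to -2.09 and Ly6a from -3.25 to -2.33. Vwf ran from -3.06 to -1.46, Eng from -1.84 to -1.41, Cldn5 from -3.49 to -1.46 and Emcn from -2.41 to -1.05.

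The distance between acute and chronic EAE differed in size between the genotypes, at a median of -0.66 in Cx47-deficient mice, with 10 of 32 members at least 2-fold lower (5.51%), and -1.67 in WT mice, with 24 of 32 (12.6%). Against naive mice, limma called 0 members in chronic EAE (0.695% of genes were called higher and 0.232% lower), and at an unadjusted p under 0.05 it had Vwf higher (19.0%) and Cgnl1, Mfsd2a, Bsg and Sox17 lower (13.5%). The median was 0.29 in the fit, but its sign turned to -0.27 without the Cx47-deficient chronic array, -0.13 without the Cx47-deficient naive array and -0.06 under median centring, and it was 0.67 without the WT naive and 0.76 without the WT chronic array. Between single arrays it was 0.77 in Cx47-deficient mice, with 13 of 31 members at least 2-fold higher (8.62%), and -0.43 in WT mice, with 0 of 30 at least 2-fold higher (16.6%) and 3, Tek, Cgnl1 and Sox17, at least 2-fold lower (9.68%).

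The remaining question was how Cx47-deficient mice compared with WT mice. Over all 4 conditions limma called 0 members and 0 of all genes. At an unadjusted p under 0.05 only Pecam1 was lower (1.12% of all genes), by -0.35 ± 0.11, and it was lower in Cx47-deficient mice in each of the 4 conditions. Of the members measured on all 8 arrays, Egfl7 (-0.51 ± 0.23) and Ocln (0.50 ± 0.37) had the largest fitted differences by size, and Egfl7 was at -0.26 without either naive array. The median was -0.15, and it was 0.03 without either naive array, -0.40 without either chronic array and -0.32 under median centring.

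Condition by condition, the genotype difference was negative in naive mice and positive in chronic EAE. In naive mice 26 of the 30 members that could be compared were lower in the Cx47-deficient than in the WT mouse (54.7% of genes compared), with a median of -0.76, and 10 were at least 2-fold lower (2.65%): Ly6a, Ly6c1, Slco1a4, Cldn5, Egfl7, Vwf, Flt1, Robo4, Itm2a and Kdr. None was 2-fold higher (8.04%). In EAE the median was -0.12, with 1 member at least 2-fold higher, Ocln (6.64%), and 1 lower, Erg (0.689%). With iguratimod it was -0.40, and 29 of 31 members were lower (54.4%), while none was 2-fold higher (2.57%) or lower (2.27%). In chronic EAE it was 0.61, with 29 of 31 higher (53.2%) and 7 at least 2-fold higher (1.63%): Robo4 (1.49), Cdh5 (1.37), Tek (1.34), Abcb1a (1.31), Cldn5 (1.28), Slco1a4 (1.21) and Ocln (1.18). Pecam1 (-0.39) and Egfl7 (-0.09) were the exceptions. Of the 30 members compared in both pairs, 24 were below WT in naive mice and above WT in chronic EAE, against 32.9% of genes.

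**Figure D3:**
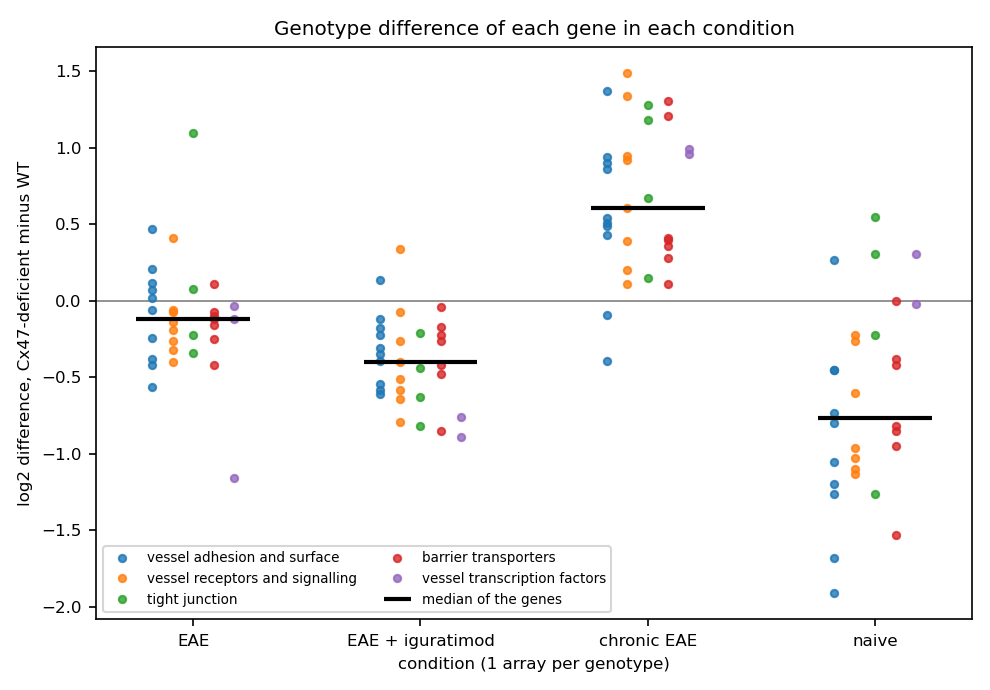
Log2 difference between the Cx47-deficient and the WT array of each condition, 1 point per gene coloured by role, with the median of the genes as a bar; genes dim on both arrays are left out. The bars lie at -0.12 in EAE, -0.40 with iguratimod, 0.61 in chronic EAE and -0.76 in naive mice.

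The change of sign was examined in 2 fits, the first with a contrast chosen with earlier results of these data known. For the genotype difference in naive mice against that in the 3 disease conditions, limma called 0 members, with a median of -0.79. At an unadjusted p under 0.05 it had 5 members lower, Ly6a, Ly6c1, Tek, Itm2a and Egfl7, against 1.99% of all genes. Among them, Tek was not well above background in the Cx47-deficient naive mouse, so its fitted value is uncertain. For the difference in chronic EAE against that in naive mice, a fit added after the data were seen and with 1 residual degree of freedom, limma again called 0, with a median of 1.19 and 15 members higher at an unadjusted p under 0.05 (2.1%). They include Tie1 and Tek, which were at background on arrays of this contrast. Of those measured on all 8 arrays, Cldn5 (2.54 ± 0.41), Robo4 (2.59 ± 0.44) and Ly6c1 (2.58 ± 0.44) had the lowest p. Markers of other cells differed between the same single arrays. In the naive pair the pericyte list had a median of -0.46 (9 of 10 lower in the Cx47-deficient mouse), the ependymal list -0.94 (5 of 5), the oligodendrocyte list -0.32 (9 of 9) and the erythroid list 1.03 (4 of 4 higher). There the mean level of the choroid plexus list was -0.84 in the Cx47-deficient and -1.37 in the WT mouse. That of the astrocyte list was 3.04 and 3.26. In the chronic pair the pericyte list had 0.70 (9 of 10 higher), the ependymal list 0.61 (5 of 5), the oligodendrocyte list 0.47 (8 of 9), the astrocyte list 0.65 (12 of 12), the choroid plexus list 2.02 (6 of 6) and the erythroid list 1.48 (4 of 4). Their part in the genotype differences was not tested.

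Genes around these members were read from lists of the same pathways and cells. Of 18 other endothelial genes tested, 16 had a positive difference between EAE and naive mice, with a median of 1.43, among them Ctla2a (2.98) and the matrix gene Fn1 (2.86), which fibroblasts and macrophages also express. Of 15 other vessel transcription factors, 14 were above 0 with a median of 1.22. Pericytes wrap the same capillaries, and 10 of 10 of their markers were above 0 with a median of 1.46. Rgs5, a pericyte regulator of G protein signalling, lay at -0.46 and -0.72 in Cx47-deficient and WT mice with EAE, and at -2.57 and -1.94 in naive mice. Limma called none of these 3 lists' genes at an adjusted p under 0.05.

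The signals that act on these vessels differed less. The VEGF and angiopoietin list had a median of 0.10 over 11 genes (7 above 0), the barrier Wnt list 0.08 over 14 (10 above 0) and the vessel Notch list 0.21 over 8 (5 above 0). The largest differences in the first 2 lists were those of the endothelial phosphatase Ptprb (1.85) and the Wnt effector Lef1 (2.05). Angptl4 and Apcdd1 of these lists were higher too. Angptl4 lay at -0.42 and -0.14 in Cx47-deficient and WT mice with EAE, against -1.76 and -1.31 in naive mice. Apcdd1 lay at 1.01 and 1.44, against 0.11 and 0.30. Vegfa lay at 0.96 and 0.90 in Cx47-deficient and WT mice with EAE, against 1.24 and 0.78 in naive mice. Other junction genes had a median of 0.05 over 11 genes, among which Lsr, the receptor of tricellular junctions, stood at 2.69. Other barrier transporters had a median of 0.08 over 17 genes, among which Slc38a5, a glutamine transporter, stood at 3.43. In chronic against acute EAE limma called Slc38a5 lower (-2.83 ± 0.53, adjusted p 0.0412).

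Vessel genes of inflammation and markers of immune cells were read in the same fit. Of the 8 venous genes, whose median was 0.54, Ackr1 (-0.40) and Selp (-0.22) lay below 0. Limma called 2 of the 8 higher in EAE than in naive mice, Icam1 (2.53 ± 0.24, adjusted p 0.0453), a ligand for leukocyte integrins, and Lcn2 (5.62 ± 0.50, adjusted p 0.0441), a siderophore-binding protein that reactive astrocytes also make. Of the monocyte list 8 of 8 were above 0, with a median of 3.91 and Plac8 called, at least 54.3-fold higher in EAE and dim on both naive arrays (adjusted p 0.0337). Of the interferon-stimulated list 12 of 12 were above 0, with a median of 3.55 and 3 called, Iigp1, Gbp2 and Igtp. The T cell list had a median of 2.01 (5 of 5). For microglia markers 5 of 7 were above 0 (median 0.67), and Siglech lay at -0.26. Astrocyte markers had a median of 0.07 (8 of 12 above 0) and oligodendrocyte markers -0.76 (0 of 9). In chronic against acute EAE limma called 12 of 12 interferon-stimulated and 6 of 8 monocyte genes lower, as it did Ly6a, Ly6c1, Vwf and Eng, and 4 of 8 arterial genes, Sema3g, Gkn3, Mgp and Bmx, were called lower too. Lists of other cells also lay lower. In Cx47-deficient and WT mice, the mean deviation of astrocyte markers was 0.24 and 0.38 in EAE and -0.34 and -1.02 in chronic EAE. Oligodendrocyte markers lay at -0.30 and 0.50, then at -0.96 and -1.23. Ependymal markers lay at 0.90 and 0.63, then at -0.28 and -1.33. Neuron markers differed little, at -0.10 and 0.08, then at 0.02 and -0.10. The part of immune cells, other cells or interferon in the members' differences was not tested.

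**Figure D4:**
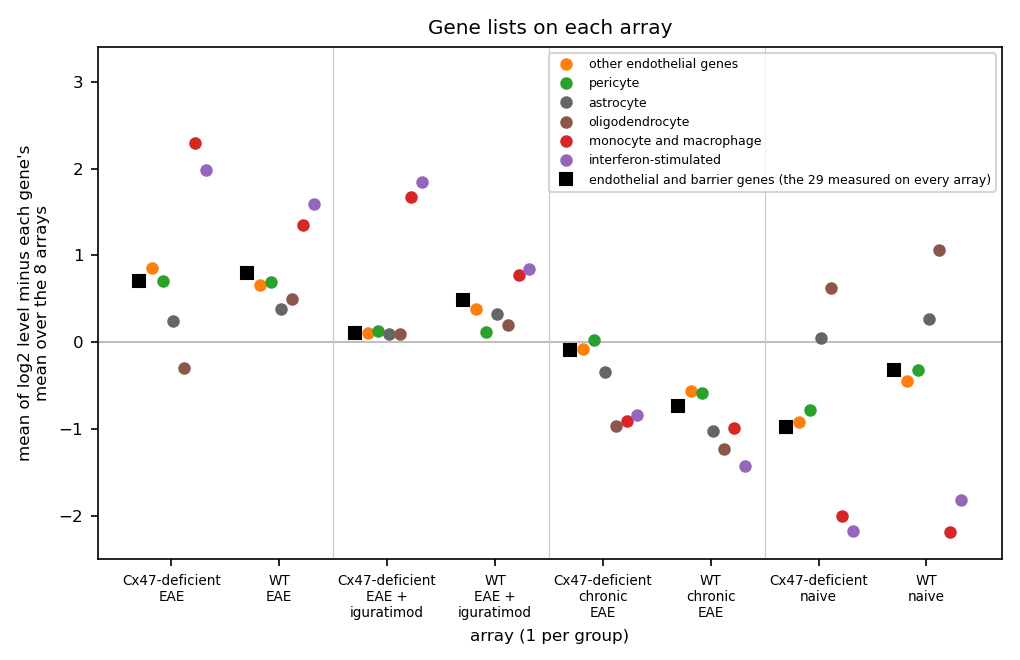
Mean over each gene list of the log2 level minus the gene's own mean over the 8 arrays, 1 array per group; black squares are the 29 endothelial and barrier genes well above background on every array. On the Cx47-deficient and WT EAE arrays the squares lie at 0.71 and 0.80, beside pericyte markers at 0.71 and 0.69 and other endothelial genes at 0.86 and 0.66, while the monocyte markers lie at 2.30 and 1.35.

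The genes outside the set whose levels were most like the members' mean were found among 20358 genes well above background on all 8 arrays. They were Degs2 (r = 0.996), Lsr (0.994), Icam2 (0.994), Higd1b (0.993), Pglyrp1 (0.992), Ctla2b (0.991), Ctla2a (0.99), Cd93, Tm4sf1 and Thbd (0.989 each). Lsr, Icam2, Higd1b, Ctla2a and Tm4sf1 were on the lists above, Higd1b as a pericyte marker. Degs2 lay at -1.58 and -1.52 in Cx47-deficient and WT mice with EAE, -2.64 and -2.05 with iguratimod, -3.19 and -4.35 in chronic EAE, and -5.17 and -3.65 in naive mice. These correlations are over 8 arrays and are descriptions.

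Single probes stood behind 21 of the members, and 11 had several. In 5 of those, more than 1 probe was well above background on every array. The second Ly6c1 probe correlated with the first at 0.99 and gave a difference of 3.29 between EAE and naive mice. A second Flt1 probe correlated at 0.99 and gave 2.70, a second Slco1c1 probe at 0.97 with 0.95, and a second Ramp2 probe at 0.91 with 0.89. The second Tjp1 probe correlated at 0.49 with the first and gave 0.27. A weaker Vwf probe, well above background on 3 arrays, correlated at -0.51 with the one used and gave -0.62, so the Vwf values rest on 1 probe, at chr6:125636551-125636610 on mm9. The Cldn5 probe lies at chr16:18778046-18778105 and the Plvap probe at chr8:74021877-74021936 on the same build.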

How the data were processed

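Single-colour Agilent arrays of 8 RNA samples, 1 per group, were read from the deposited scanner files. Per the file headers, Feature Extraction 10.7.1.1 made the processed intensity values, background-subtracted and not normalized between arrays, with probe positions on mm9; the submitters' processing notes name version 9.5.1.1. The authors also deposited a table of processed intensity values, used only as an alternative. From these, log2 of the processed signal minus each array's 75th percentile was computed. Outlier-flagged spots were left out, spots of a probe were averaged, and the probe with the highest mean stood for its gene. A gene was tested where at least 2 of the 8 arrays showed it well above background; 2 such genes had a missing value and were left out, which left 25903. The fit was limma 3.58.1 in R 4.3.3 with condition and genotype as terms (lmFit, eBayes, Benjamini-Hochberg over all genes), with an added genotype term for naive arrays in a second fit. It was tested on simulated data. Signals not well above background have only a bound there: in a difference between 2 arrays they were raised to the lowest signal well above background on their array. Levels are named for the members with the largest and smallest difference between EAE and naive mice in each role, those called, and a fixed list of main markers. Of the other lists, called genes and up to 3 with the largest differences were eligible. The members, the lists, the motifs and the added genotype term for naive arrays were chosen with earlier results of these data known. No array was saturated at any spot, and their number limits the precision. The level of the targeted gene is not reported here.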

Additional observations from a re-analysis of the deposited data

Results flagged for a closer look

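The genotype difference ran in opposite directions in naive mice and in chronic EAE for 24 of the 30 endothelial and barrier genes that could be compared in both pairs, with Cx47-deficient below WT in naive mice and above WT in chronic EAE. Over all genes compared, 32.9% ran this way. The other way ran 0 of the 30 members and 24.0% of genes. Cldn5 differed by 1.28 in chronic EAE and by -1.26 in naive mice, Slco1a4 by 1.21 and -1.53, and Cdh5 by 1.37 and -0.73. Each pair is 1 array against 1, and the chronic pair came from another slide. The difference between the pairs was tested in a fit added after the data were seen: limma called 0 genes in all at an adjusted p under 0.05 and had 15 of the 32 members higher at an unadjusted p under 0.05, against 2.1% of all genes, with 2.54 ± 0.41 for Cldn5 (adjusted p 0.729). The 15 include Tie1 and Tek, which were at background on arrays of this contrast.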

How the results depend on the processing

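No pairing of individual mice was possible because the labels carry no replicate numbers and each group is 1 array. The fit matched the arrays by condition and genotype only. Between EAE and naive mice, 3 members were called under median centring, 3 under normexp and 3 with genes measured on all 8 arrays, and the members' median was 0.85 under normexp and 1.06 with the mean of all probes. With iguratimod the median was 0.47 against naive under normexp, and against untreated EAE -0.43 under normexp and -0.41 with the mean of all probes. In chronic against acute EAE, 17 members were called under median centring, 15 under normexp, 13 with genes measured on all 8 arrays and 1 with no filter. Over all genes, calls between EAE and naive mice numbered 65 in the reported fit, 337 under median centring, 205 with genes measured on all 8 arrays, 200 under normexp, 38 on quantile-normalized signals, 38 on the deposited processed table, 15 when no filter was set and 0 on slide 1 alone. In chronic against acute EAE they numbered 3811, against 6396 under median centring, 7516 under normexp, 4741 with genes measured on all 8 arrays and 1043 with no filter. Between iguratimod-treated and naive mice they numbered 1, against up to 214 under median centring, and between chronic EAE and naive mice 240, against 12 on the deposited processed table and up to 3889 under normexp. Median centring moved the median of all genes by -0.38 in chronic against acute EAE. Leaving out 1 array at a time gave 0 to 1 member called and medians of 1.08 to 1.82 for EAE against naive, medians of 0.48 to 1.24 for iguratimod against naive and -0.59 to -0.45 for iguratimod against untreated EAE, and 0 to 6 called with medians of -1.84 to -0.57 for chronic against acute EAE. The sign of some members turned. Ocln between EAE and naive mice was -0.05 under normexp and ran from -0.34 to 0.46 over the left-out arrays, Cgnl1 ran from -0.29 to 0.11, and Sox17 was 0.35 with the mean of all probes. In chronic against acute EAE, Ocln was -0.10 under quantile normalization, -0.03 under median centring and -0.10 on the deposited processed table, and ran from -0.08 to 0.82 over the left-out arrays. Plvap was -0.34 under median centring and ran from -0.20 to 0.32, and Abcb1a was 0.06 with the mean of all probes. That mean takes in a second Abcb1a probe, well above background on 2 arrays, which gave 1.56 against -1.44 for the probe used. The Sox17 mean likewise takes in probes well above background on 0 and 1 arrays. The cause of the turns under other settings was not tested. Slide 1 alone gave the same medians of 1.47, 0.86 and -0.58. They could not change, because the contrasts among the slide 1 conditions do not draw on the chronic arrays. Tie1, Erg and Tek lie near background and have the least certain values.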
